A study of Mus musculus with 8 samples.

Results

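Mesalazine given by enema during dextran sulfate sodium (DSS) colitis was compared with DSS colitis that received saline alone, across all genes of the mouse colonic mucosa. The 4 libraries compared, of 8 in the study, were those whose count columns carry the mesalazine or the model label. The mesalazine group was 2 wild-type male C57BL/6J mice that drank 3% DSS and received mesalazine at 50 mg/kg, and the DSS model group was 2 such mice that drank 3% DSS and received normal saline. The control group was 2 mice of the same strain and sex given saline enemas without DSS, and a further 2 DSS mice received the herbal formula Kuiyangling at 10 g/kg. Every enema had a volume of 0.2 ml, and all mice were killed on day 7. Polyadenylated RNA was sequenced from 1 library per animal, numbered 1 and 2 within its group, so p-values measure only the spread between these animals. Ages are not given in the sources used here, and no group received DSS without an enema.

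Mesalazine, or 5-aminosalicylic acid, is a first-line drug for ulcerative colitis that acts on the mucosa from the lumen. It is known to activate the nuclear receptor PPAR gamma in colonic epithelium, to dampen NF-kB signalling and to lower the production of prostaglandins and leukotrienes, and epithelial cells inactivate it by N-acetylation. DSS injures the colonic epithelium, after which bacteria reach the mucosa, neutrophils and monocytes enter, and cytokines such as tumour necrosis factor and interleukin-1 are released.

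Counts were given for 17353 genes, and 13381 had enough counts to be tested. Library totals lay between 15560946 and 17843715, so that 3 counts, taken as the floor, equal 0.149 to 0.212 CPM (counts scaled to library sizes adjusted by the trimmed mean of M values, TMM). All 4 libraries held markers of colonic epithelium. Car1, the carbonic anhydrase of surface colonocytes, stood at 10458 and 11399 CPM in the mesalazine mice, against 7813 and 9115 CPM in the DSS model mice. Muc2, the secreted mucin of goblet cells, was at 9063 and 3949 CPM in the mesalazine mice, against 9657 and 7496 CPM in the DSS model mice. Cdh1, the epithelial cadherin, was at 570.3 and 1053 CPM in the mesalazine mice, against 1633 and 1093 CPM in the DSS model mice. Hoxb13 and Fabp6, which mark the distal end of the gut and the ileum, differed between the groups and are given with the absorptive genes.

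No gene passed the main test in either direction (edgeR quasi-likelihood F test, Benjamini-Hochberg adjusted p under 0.05; 0.0% of 13381 genes). The smallest adjusted p was 0.203, and 735 genes (5.49%) had an unadjusted p under 0.05, 365 with higher and 370 with lower levels in the mesalazine mice. DESeq2 on the same counts and genes called 84 genes (0.628%), 39 higher (0.291%) and 45 lower (0.336%), and edgeR without a filter on low counts called 104 (0.599% of 17353), of which 70 were among the 84. Limma on log2(FPKM + 1) called none. In the paragraphs below, higher and lower therefore describe levels in these 4 animals. DESeq2 called 42 of the 59 genes with a log2 change in the text, and its adjusted p is printed for only a part of them. A gene printed without it may also have been called. Log2 changes are mesalazine minus DSS model, from edgeR.

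Both mesalazine mice lay on the same side of both DSS model mice for 3709 genes (27.7% of genes tested), 1869 above (14.0%) and 1840 below (13.8%). The shares of 14.0% and 13.8% are the reference for every count of list members without overlap given below. For 4285 genes (32.0%), more than the 3709, the mesalazine mice lay on opposite sides of both DSS model mice, without a correction for gene length. For the other 5387 at least 1 of them fell inside the range of the DSS model. A place on the same side is therefore not by itself a sign of a shared response. Taken alone, mesalazine 1 lay outside both DSS model mice for 10449 genes (78.1%) and mesalazine 2 for 9775 (73.1%). All 84 genes called by DESeq2 were among the 3709, which is no separate sign of agreement, since a call with 2 mice per group leaves little room for overlap.

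The changes of the 2 mesalazine mice were compared without sharing a library between them. Across the 13381 genes, mesalazine 1 minus DSS model 1 and mesalazine 2 minus DSS model 2 had a Pearson correlation of -0.10 (Spearman -0.24), and with the DSS model libraries exchanged it was 0.20 (Spearman 0.06). Built in the same way, the Kuiyangling mice minus the DSS model gave 0.26 and 0.25, and the DSS model minus the controls 0.42 and 0.49. These are correlations across genes, which are not independent replicates. Of 610 genes that differed by more than 2-fold in both same-numbered pairs, 294 differed in the same direction, and of 437 in the crossed pairs 359 did.

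**Figure D1:**
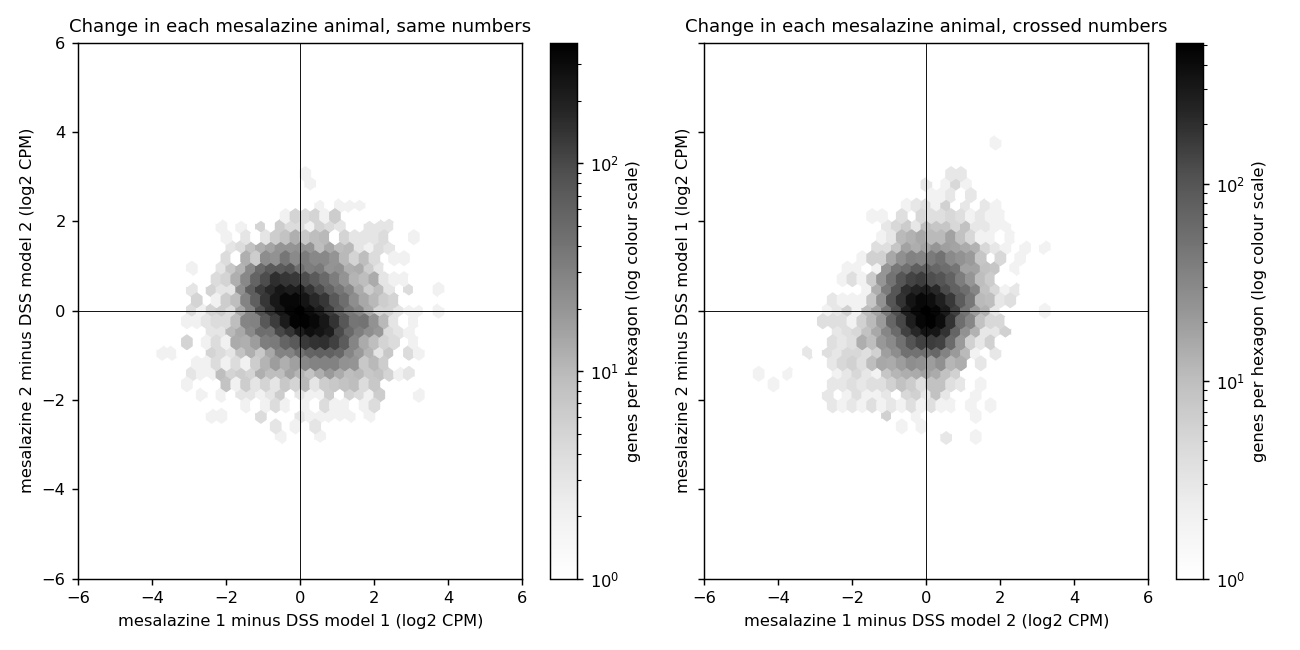
Difference in log2 CPM between 1 mesalazine and 1 DSS model animal (x axis) against the difference of the other mesalazine and DSS model animal (y axis) over 13381 genes, with same-numbered pairs on the left and crossed pairs on the right; grey gives genes per hexagon on a log scale. The cloud leans slightly downward for same numbers (r = -0.10) and upward for crossed numbers (r = 0.20).

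The mesalazine mice also differed from each other at more genes than the mice of any other group did. The share of genes more than 2-fold apart between the 2 animals was 22.2% for mesalazine, 4.94% for Kuiyangling, 8.36% for the DSS model and 12.1% for controls. Mesalazine 1 was at one end of the range of the 8 libraries in 2 measures of library composition. Ribosomal protein genes took 12.7% of its counts and 5.77% of those of mesalazine 2, against 4.14% and 6.68% in DSS model 1 and 2. Its levels relative to the other libraries went down with gene length (Spearman rho -0.53 across genes), while the rho was 0.28 in mesalazine 2, against -0.10 and -0.43 in DSS model 1 and 2. The rho was 0.44 and 0.27 in the controls and -0.02 and 0.39 in the Kuiyangling mice, so DSS model 2 came closest to mesalazine 1. With a correction for length the share of genes more than 2-fold apart was 13.9% for mesalazine, 4.98% for Kuiyangling, 8.19% for the DSS model and 12.1% for controls, and the correlations between mesalazine mice were 0.03 and 0.26. The SD over genes of the log2 difference was then 0.731 for mesalazine and 0.739 for controls, against 0.853 and 0.742 without the correction. With the correction both mesalazine mice lay on the same side of both DSS model mice for 4568 genes, 2259 above and 2309 below, against 3709 without it. Genes with the mesalazine mice on opposite sides were not counted with the correction. The part of RNA composition in the results on single genes was not tested further than by this correction, under which no gene was called either.

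**Figure D2:**
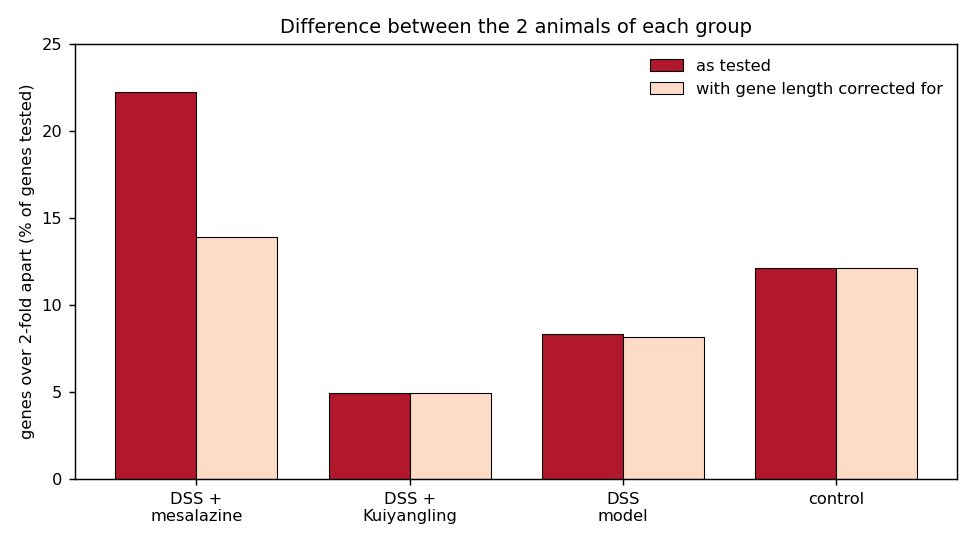
Percentage of 13381 genes that differ by more than 2-fold between the 2 animals of each group (y axis), as tested (dark bars) and after correction for gene length (light bars). Mesalazine has the highest bar in both settings, at 22.2% and 13.9%.

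The 6 genes by which mesalazine 1 most exceeded mesalazine 2, among genes of at least 5 CPM, were Lcn2, Lrg1, Mmp3, Serpina3n, Reg3b and Fabp4. Reg3b, a bactericidal lectin of the intestinal epithelium, was the most abundant transcript of mesalazine 1 and took 3.87% of its counts. It stood at 46420 and 4459.6 CPM in the mesalazine mice, against 18181 and 14103 CPM in the DSS model mice, and at 428 and 162 CPM in the controls, so that 1 mesalazine mouse was above and the other below both DSS model mice. Lcn2, the siderophore-binding protein lipocalin 2, did the same with 58.4 and 3.97 CPM in the mesalazine mice, against 6.98 and 14.2 CPM in the DSS model mice. Serpina3n, a serine protease inhibitor, had 30.4 and 2.68 CPM in the mesalazine mice, against 3.96 and 7.03 CPM in the DSS model mice. Fabp4, a fatty acid-binding protein, had 12.5 and 1.11 CPM in the mesalazine mice, against 1.26 and 4.31 CPM in the DSS model mice. Lrg1, a secreted acute phase glycoprotein, stood at 44 and 3.09 CPM in the mesalazine mice, against 76.1 and 19.1 CPM in the DSS model mice. The matrix metalloproteinase Mmp3 was at 25 and 2.04 CPM in the mesalazine mice, against 8.3 and 28.2 CPM in the DSS model mice. For Lrg1 and Mmp3 mesalazine 2 was the lowest of the 4 animals and mesalazine 1 lay inside the DSS model range.

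The genes by which mesalazine 2 most exceeded mesalazine 1 were of other kinds, and 5 of the 6 are given. Apoa4, an apolipoprotein of absorptive enterocytes, had 1.27 and 50.0 CPM in the mesalazine mice, against 0.44 and 0.331 CPM in the DSS model mice. Slc37a2, a phosphate-linked sugar phosphate transporter, had 0.707 and 98.5 CPM in the mesalazine mice, against 1.38 and 0.53 CPM in the DSS model mice, and the controls also differed, with 27 and 326 CPM. Gsdmc4, of the gasdermin C cluster, was below the DSS model in both, at 8.35 and 153 CPM in the mesalazine mice, against 771 and 320.4 CPM in the DSS model mice. The sulfotransferase gene Gal3st2c was listed at 0 and 22.3 CPM in the mesalazine mice, against 0.377 and 0 CPM in the DSS model mice. Trim56, a ubiquitin ligase of antiviral defence, was at 0.283 and 6.18 CPM in the mesalazine mice, against 7.99 and 3.78 CPM in the DSS model mice.

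Interferon-stimulated genes were lower in both mesalazine mice for most members. These genes are switched on by type I, II or III interferons through STAT and IRF factors, which bind an element whose core is a repeat of GAAA. Of 30 listed genes 28 were tested, and all 28 estimates were below 0, with a median log2 change of -1.54, against a median of 0.04 over all genes tested. In 24 of the 28 both mesalazine mice were below both DSS model mice, against 13.8% of all genes tested, and 18 had an unadjusted p under 0.05 on the lower side, against 2.77% of all genes. DESeq2 called 2 of them, Bst2 and Irgm1. The median was -2.48 in mesalazine 1 and -0.95 in mesalazine 2, each against the mean of the DSS model mice. Without mesalazine 1 the median estimate was -0.98 and without mesalazine 2 it was -2.59.

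The promoters of these genes are shown because most members lay on one side together. The motif searched was GAAA, any 2 bases and GAAA again, on both strands of the 250 bases before the start of each gene, using the RefSeq promoter table for GRCm38.p6 matched by symbol. It was present in 14 of the 22 members with an entry (63.6%), against 3.31% of 10673 tested genes and 3.46% of all 27025 promoters. A match describes letters and is not evidence that a factor binds. As the list holds genes known to be induced through this element, the share does not bear on the change in these animals. Shown are the bases around the match in 4 genes, 5′ to 3′ on the strand of the gene, with the matched bases in capitals. For Isg15 they are chr4:156200845-156200926 on the minus strand, which end 27 bases before the start. For Bst2 they are chr8:71537557-71537632 on the minus strand, for Irgm1 chr11:48871421-48871480 on the minus strand and for Igtp chr11:58199492-58199555 on the plus strand.
Isg15: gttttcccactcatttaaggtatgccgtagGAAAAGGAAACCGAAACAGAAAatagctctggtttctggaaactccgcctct
Bst2: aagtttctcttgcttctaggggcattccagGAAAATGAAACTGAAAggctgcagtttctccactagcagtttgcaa
Irgm1: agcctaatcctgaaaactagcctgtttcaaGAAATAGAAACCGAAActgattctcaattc
Igtp: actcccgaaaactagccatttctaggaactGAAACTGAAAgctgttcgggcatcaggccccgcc

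Bst2 (NCBI gene 69550), whose product tethers budding viruses to the cell, had 48.1 and 44.8 CPM in the mesalazine mice, against 209 and 145 CPM in the DSS model mice (log2 change -1.93, SE 0.45; edgeR adjusted p = 0.503, DESeq2 adjusted p = 0.00451). The mesalazine mice were close to each other and below every DSS model and control mouse, the controls standing at 222 and 161 CPM. Isg15 (NCBI gene 100038882), a ubiquitin-like modifier whose promoter holds 3 overlapping matches, had 26.7 and 68.1 CPM in the mesalazine mice, against 368 and 205 CPM in the DSS model mice (log2 change -2.59, SE 0.74; edgeR adjusted p = 0.544), and the controls 289.8 and 610.3 CPM. The interferon-inducible GTPases, which act on vacuoles that hold microbes, followed the same order. Irgm1 stood at 53.6 and 118 CPM in the mesalazine mice, against 276 and 274 CPM in the DSS model mice (log2 change -1.67, SE 0.47). Igtp was at 13.7 and 42.3 CPM in the mesalazine mice, against 163 and 156 CPM in the DSS model mice (log2 change -2.51, SE 0.76). Iigp1 was at 4.95 and 26.1 CPM in the mesalazine mice, against 108 and 139 CPM in the DSS model mice. Phf11a and Phf11b, neighbouring genes of a plant homeodomain finger family that interferon induces, were outside the list. Phf11a had 0.495 and 1.11 CPM in the mesalazine mice, against 13.8 and 5.1 CPM in the DSS model mice (log2 change -3.53, SE 0.66; DESeq2 adjusted p = 3.9e-05). Phf11b had 18.5 and 20.0 CPM in the mesalazine mice, against 81.9 and 74.9 CPM in the DSS model mice (log2 change -2.03, SE 0.31; DESeq2 adjusted p = 1.2e-05). In contrast, Ifit1, an antiviral protein that binds viral RNA, was split between the mesalazine mice, at 25 and 163 CPM in the mesalazine mice, against 199 and 120.2 CPM in the DSS model mice.

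**Figure D3:**
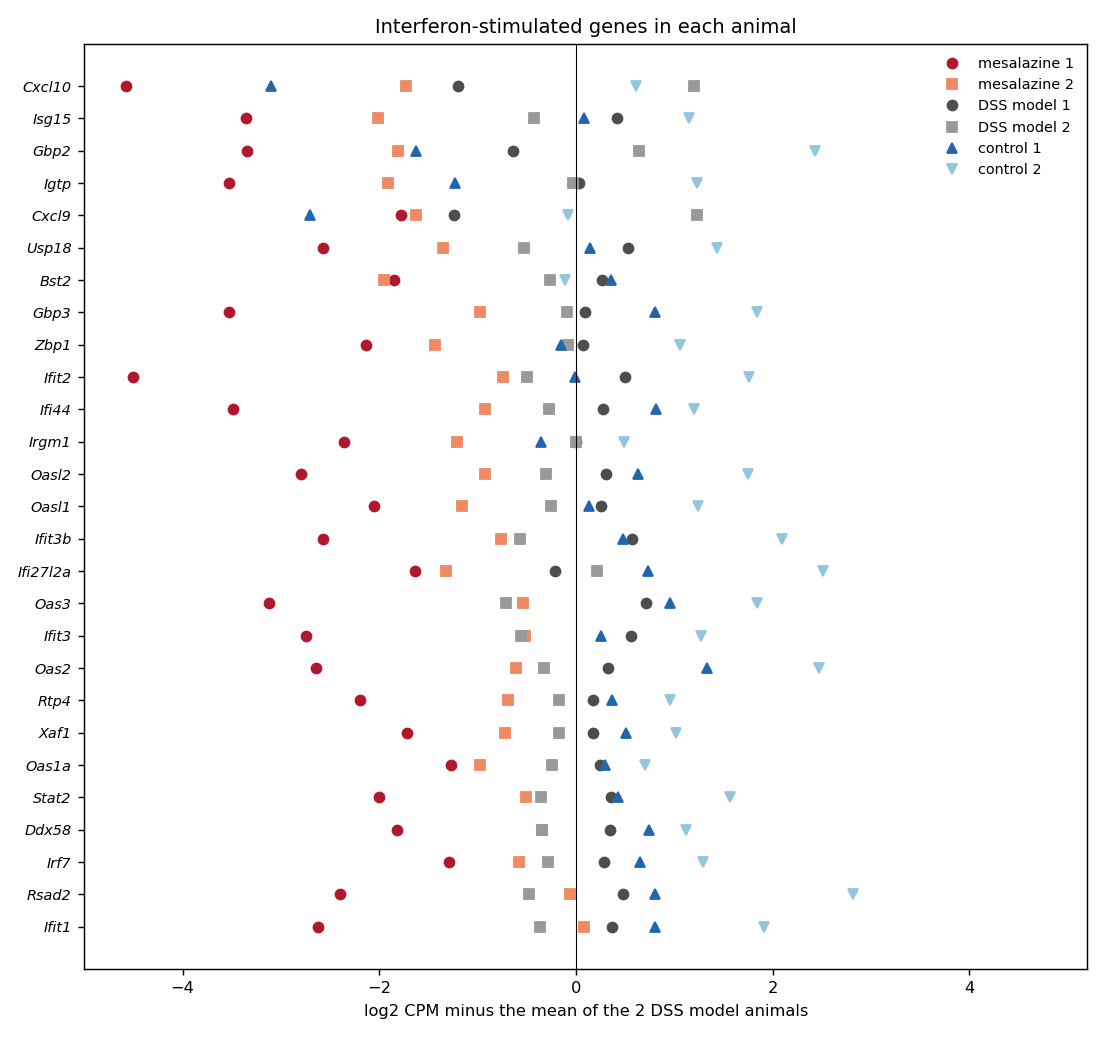
Level of 27 of the 28 tested interferon-stimulated genes in each animal, as log2 CPM minus the mean of the 2 DSS model mice (x axis), with genes ordered by log2 change. Both mesalazine mice (circles and squares in red and orange) lie left of both DSS model mice in 23 genes, and mesalazine 1 lies farther left than mesalazine 2 in all but Bst2.

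Some antigen presentation genes that interferon gamma induces were also lower in both mesalazine mice. Tap1, which pumps peptides into the endoplasmic reticulum, had 58.9 and 84.9 CPM in the mesalazine mice, against 237 and 218 CPM in the DSS model mice (log2 change -1.66, SE 0.50). The immunoproteasome subunit Psmb9 had 51.9 and 43.1 CPM in the mesalazine mice, against 120.2 and 125 CPM in the DSS model mice. Of the 15 tested genes of MHC class II and antigen presentation, 9 were lower without overlap and 1 higher, with a median of -0.73 (-0.38 without DSS model 2). The shares over all genes tested were 13.8% lower and 14.0% higher. The class II gene H2-Aa overlapped, at 42.7 and 38.6 CPM in the mesalazine mice, against 33 and 72.3 CPM in the DSS model mice. B2m, the light chain of class I molecules, stood at 1928 and 2321 CPM in the mesalazine mice, against 1822 and 2391 CPM in the DSS model mice. Control 2 had far more class II transcript than control 1, with Cd74 at 53.8 and 1104 CPM in the controls.

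Inflammatory cytokine transcripts were lower in the mesalazine mice for most members measured. Of 16 listed cytokines 13 were tested, 9 were lower without overlap and 1 was higher, and the median was -1.19 (-0.71 without DSS model 2). Over all genes tested 13.8% were lower and 14.0% higher without overlap. Tnf (NCBI gene 21926), the target of the anti-TNF antibodies used in colitis, had 3.61 and 2.63 CPM in the mesalazine mice, against 14.3 and 9.94 CPM in the DSS model mice (log2 change -1.96, SE 0.38; edgeR adjusted p = 0.334, DESeq2 adjusted p = 0.00311). Its controls stood at 3.96 and 4.62 CPM, above both mesalazine mice. Il1b, the product of which is released by activated myeloid cells, had 7.5 and 5.08 CPM in the mesalazine mice, against 13.7 and 36.1 CPM in the DSS model mice (log2 change -1.99, SE 0.51; DESeq2 adjusted p = 0.0252). Both mesalazine mice were below both DSS model mice and above the controls, which had 0.594 and 1.17 CPM. Lif, a cytokine of the interleukin-6 family, stood at 3.11 and 3.27 CPM in the mesalazine mice, against 10.1 and 8.48 CPM in the DSS model mice (log2 change -1.54, SE 0.41). Il6 itself was near the floor in the mesalazine mice, at 0.495 and 0.525 CPM in the mesalazine mice, against 0.566 and 1.79 CPM in the DSS model mice. Tnfsf9, a ligand that costimulates T cells, was the member higher without overlap, at 1.84 and 1.58 CPM in the mesalazine mice, against 1.32 and 0.928 CPM in the DSS model mice.

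Of the chemokines and growth factors that draw or sustain neutrophils, 8 of 14 were tested, 4 were lower without overlap and none was higher, with a median of -1.74 (-0.91 without DSS model 1). The shares over all genes tested were 13.8% lower and 14.0% higher. Cxcl2, a ligand of the neutrophil receptor CXCR2, had 3.25 and 2.8 CPM in the mesalazine mice, against 10.1 and 12.5 CPM in the DSS model mice (log2 change -1.90, SE 0.45; DESeq2 adjusted p = 0.0384), and at most 0.0616 CPM in either control. Cxcl5, another CXCR2 ligand, had 1.41 and 1.17 CPM in the mesalazine mice, against 4.28 and 6.56 CPM in the DSS model mice (log2 change -2.07, SE 0.48; DESeq2 adjusted p = 0.0417). Cxcl1 stood at 2.33 and 1.23 CPM in the mesalazine mice, against 3.71 and 8.62 CPM in the DSS model mice (log2 change -1.79, SE 0.61). In all 3 genes both mesalazine mice were below both DSS model mice, and the mesalazine mice differed less from each other than the DSS model mice did. Il17a, Il17f, Il22, Il23a, Csf2 and Ppbp had too few counts to be tested.

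Neutrophil markers were lower in mesalazine 2 and less so in mesalazine 1. Of 25 listed genes 17 were tested, 10 were lower without overlap and none was higher, with a median of -1.11, which was -1.98 without mesalazine 1, -0.80 without mesalazine 2 and -0.59 without DSS model 2. The shares over all genes were 13.8% lower and 14.0% higher. Csf3r, the receptor of granulocyte colony-stimulating factor, had 0.283 and 0.583 CPM in the mesalazine mice, against 3.02 and 3.11 CPM in the DSS model mice (log2 change -2.78, SE 0.68; edgeR adjusted p = 0.504). Clec4e, a receptor for microbial glycolipids, had 0.495 and 0.292 CPM in the mesalazine mice, against 1.7 and 3.78 CPM in the DSS model mice (log2 change -2.79, SE 0.69). Csf3r and Clec4e were near the floor in the mesalazine mice, so their log2 changes rest on few counts. The calprotectin subunits S100a8 and S100a9 separated the mesalazine mice. S100a8 stood at 9.27 and 3.56 CPM in the mesalazine mice, against 9.62 and 18.4 CPM in the DSS model mice. S100a9 was at 10.9 and 2.86 CPM in the mesalazine mice, against 10.9 and 21 CPM in the DSS model mice. In both genes mesalazine 1 was close to DSS model 1. In bulk mucosa, fewer cells of a type and less RNA per cell cannot be told apart. The summed level of the list was 1158 and 667 CPM in the mesalazine mice, 1179.8 and 1125 CPM in the DSS model mice and 3079.7 and 4236 CPM in the controls, and it was carried by Slfn4, Ly6g and Cd177. Slfn4 alone was at 2873 and 3915 CPM in the controls, where S100a9 was at 0. Camp, a granule protein of neutrophil precursors, was at 0 in the mesalazine, DSS model and control libraries, and the neutrophil deiminase Padi4 was at 0 in both mesalazine mice. Of 23 tested components of neutrophil extracellular traps, 9 were lower without overlap and 2 higher, with a median of -0.23 (-0.54 without mesalazine 1).

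Among 20 genes of the NF-kB pathway and its feedback inhibitors, 15 estimates were below 0, with 7 lower and 2 higher without overlap. Their median was -0.13, and it was -0.03 without mesalazine 1 and -0.31 without mesalazine 2. Over all genes tested 6113 of 13381 estimates were below 0. Bcl3, a nuclear partner of p50 and p52, had 22.6 and 32.1 CPM in the mesalazine mice, against 97.3 and 58.5 CPM in the DSS model mice (log2 change -1.51, SE 0.36; DESeq2 adjusted p = 0.0252). The adhesion molecule Icam1 had 4.88 and 3.62 CPM in the mesalazine mice, against 6.04 and 12.3 CPM in the DSS model mice. Nfkbia, which holds NF-kB in the cytoplasm and is one of its targets, stood at 85 and 70.7 CPM in the mesalazine mice, against 95.7 and 113 CPM in the DSS model mice. In the KEGG annotation deposited with the counts, 42 of 105 tested genes of TNF signalling were lower without overlap and 6 higher (median -0.20). The same counts were 26 and 2 of 73 for IL-17 signalling (median -0.14) and 27 and 5 of 89 for NF-kappa B signalling (median -0.16). Among all genes tested 13.8% were lower and 14.0% higher without overlap. Immediate early genes, which respond within minutes to growth factors and stress, had 13 of 20 lower and none higher without overlap (median -0.50). Egr1, a zinc finger transcription factor, stood at 11.3 and 18.7 CPM in the mesalazine mice, against 48.3 and 63.4 CPM in the DSS model mice (log2 change -1.89, SE 0.49; DESeq2 adjusted p = 0.0218).

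**Figure D4:**
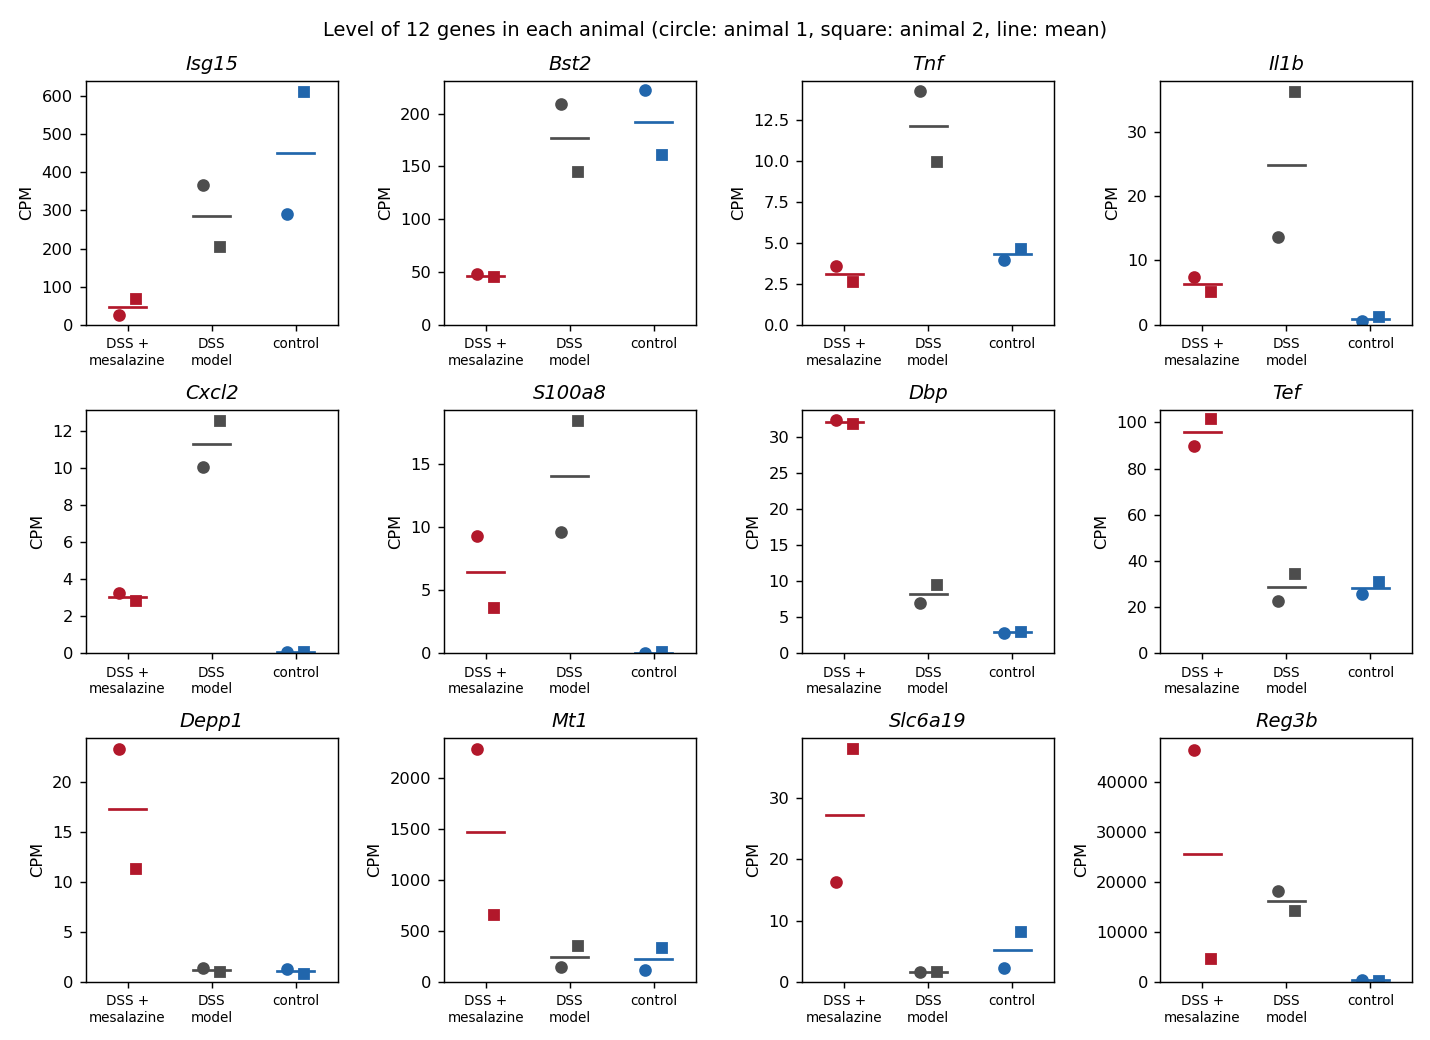
Level in CPM (y axis, linear from 0, its own scale per gene) of 12 genes in each mesalazine, DSS model and control animal; circles are animal 1, squares animal 2 and lines the mean of the pair. Isg15, Bst2, Tnf, Il1b and Cxcl2 are lower and Dbp, Tef, Depp1, Mt1 and Slc6a19 higher in both mesalazine mice than in both DSS model mice, while Reg3b is split.

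Of the epithelial antimicrobial and wound genes, 24 of 28 were tested, 13 were lower without overlap and 1, Reg4, was higher, with a median of -0.66 (-1.20 without mesalazine 1). DESeq2 called 4 of them lower, and over all genes tested 13.8% were lower and 14.0% higher without overlap. Sprr1a, a cornified envelope protein that injured gut epithelium expresses, had 8.28 and 12 CPM in the mesalazine mice, against 35.5 and 34.7 CPM in the DSS model mice (log2 change -1.79, SE 0.31; DESeq2 adjusted p = 0.000851). The mesalazine mice were at the level of the controls, which had 8.47 and 12.4 CPM. Plaur, the urokinase receptor, had 15.8 and 9.92 CPM in the mesalazine mice, against 40.7 and 51.9 CPM in the DSS model mice (log2 change -1.85, SE 0.37; DESeq2 adjusted p = 0.0019). Areg, an epidermal growth factor receptor ligand, had 24 and 34.7 CPM in the mesalazine mice, against 58.8 and 128 CPM in the DSS model mice (log2 change -1.67, SE 0.40). Duoxa2, the maturation factor of the hydrogen peroxide-producing oxidase Duox2, stood at 84.6 and 73.3 CPM in the mesalazine mice, against 311 and 192 CPM in the DSS model mice (log2 change -1.67, SE 0.46). Nos2, the inducible nitric oxide synthase, was not called and stood at 12.7 and 31.9 CPM in the mesalazine mice, against 130.2 and 62.1 CPM in the DSS model mice (log2 change -2.11, SE 0.68). In contrast to these, the lectins and acute phase genes of the list (Reg3b, Reg3g, Lcn2, Saa1, Saa3) were highest in mesalazine 1, with Saa1 at 4387 and 1259 CPM in the mesalazine mice, against 1372 and 1850.4 CPM in the DSS model mice.

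Of other genes on the lower side, Mfsd2a (NCBI gene 76574), a sodium-dependent transporter of lysophosphatidylcholine, had 9.9 and 6.83 CPM in the mesalazine mice, against 40.6 and 33.9 CPM in the DSS model mice (log2 change -2.16, SE 0.32; edgeR adjusted p = 0.203, DESeq2 adjusted p = 1.2e-05). It was at 2.67 and 2.34 CPM in the controls, so the mesalazine mice lay between the controls and the DSS model. Cldn8, a sealing claudin of the distal colon, had 21.8 and 28.2 CPM in the mesalazine mice, against 111 and 71.6 CPM in the DSS model mice (log2 change -1.87, SE 0.30; DESeq2 adjusted p = 3.9e-05), and here the controls, at 62.3 and 72.8 CPM, stood above the mesalazine mice. The adhesion receptor Adgrf1 had 2.05 and 2.98 CPM in the mesalazine mice, against 16.3 and 8.35 CPM in the DSS model mice (log2 change -2.28, SE 0.43). Adcy2, an adenylyl cyclase, had 4.6 and 3.33 CPM in the mesalazine mice, against 14.1 and 12.7 CPM in the DSS model mice (log2 change -1.76, SE 0.34). Phlda1, a pleckstrin homology-like domain protein, had 25.5 and 33.4 CPM in the mesalazine mice, against 68.2 and 101 CPM in the DSS model mice (log2 change -1.52, SE 0.29). In these 3 genes both mesalazine mice were below both DSS model mice. Aqp4, a water channel of the basolateral membrane, stood at 158 and 187 CPM in the mesalazine mice, against 864 and 586 CPM in the DSS model mice (log2 change -2.07, SE 0.47; DESeq2 adjusted p = 0.00168). Ccnd1, the G1 cyclin D1, was at 74.3 and 70.9 CPM in the mesalazine mice, against 227 and 149 CPM in the DSS model mice (log2 change -1.37, SE 0.28; DESeq2 adjusted p = 0.00399).

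Chaperones of the endoplasmic reticulum were mostly lower as well. Of 23 tested genes of the unfolded protein response, 13 were lower and 2 higher without overlap (median -0.46, and -0.79 without mesalazine 1), and none was called by DESeq2. The shares over all genes were 13.8% lower and 14.0% higher. Hyou1, a chaperone of the 170-kDa heat shock family, had 56.9 and 46 CPM in the mesalazine mice, against 152 and 85.8 CPM in the DSS model mice (log2 change -1.21, SE 0.33). Calr, the calcium-binding chaperone calreticulin, had 477 and 355 CPM in the mesalazine mice, against 1193 and 616 CPM in the DSS model mice. The 2 members on the higher side were Ddit3 and Herpud1. Ddit3, the transcription factor CHOP, had 22.6 and 22.2 CPM in the mesalazine mice, against 14.9 and 17 CPM in the DSS model mice. Herpud1, a degradation adaptor, had 199 and 129 CPM in the mesalazine mice, against 101 and 106 CPM in the DSS model mice.

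On the higher side were circadian clock genes, of which Dbp, Tef and Cry2 had similar levels in both mesalazine mice. The clock is a loop in which BMAL1 (Arntl) and CLOCK or NPAS2 drive the Per and Cry genes, which feed back on them, and the outputs Dbp, Tef and Hlf act through D-box elements. Of 19 listed genes 17 were tested, 8 were higher without overlap (14.0% of all genes were) and 3 lower, with a median of 0.78. DESeq2 called 3 of them. Dbp (NCBI gene 13170) had 32.3 and 31.9 CPM in the mesalazine mice, against 6.98 and 9.41 CPM in the DSS model mice (log2 change 1.97, SE 0.30; edgeR adjusted p = 0.203, DESeq2 adjusted p = 3.9e-05). Tef (NCBI gene 21685) had 89.8 and 102 CPM in the mesalazine mice, against 22.8 and 34.2 CPM in the DSS model mice (log2 change 1.75, SE 0.29; edgeR adjusted p = 0.203, DESeq2 adjusted p = 6.86e-05). The mesalazine mice differed little from each other in both genes, and the controls, at 2.87 and 2.9 CPM for Dbp and 25.7 and 31.1 CPM for Tef, were below the DSS model for Dbp and within its range for Tef.

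Per2, Per3 and Cry2 of the negative limb were higher without overlap, and Arntl and Npas2 of the positive limb lower. Per3 had 17.9 and 37.8 CPM in the mesalazine mice, against 9.49 and 8.22 CPM in the DSS model mice (log2 change 1.65, SE 0.37; DESeq2 adjusted p = 0.0154). Per2 had 13.4 and 26.7 CPM in the mesalazine mice, against 9.05 and 7.75 CPM in the DSS model mice (log2 change 1.26, SE 0.47). Cry2 had 29 and 27.9 CPM in the mesalazine mice, against 13.6 and 8.95 CPM in the DSS model mice (log2 change 1.34, SE 0.33). Arntl stood at 12.5 and 17.4 CPM in the mesalazine mice, against 31.5 and 24.7 CPM in the DSS model mice (log2 change -0.91, SE 0.34). Npas2 was at 7.07 and 14.7 CPM in the mesalazine mice, against 29.1 and 16.4 CPM in the DSS model mice. Clock and Cry1 overlapped between the groups. The labels give the day of collection and no hour.

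The promoter of Per3 is shown as the one member with D-box letters. TTATGTAA was found, on both strands and in the 250 bases before the start, in 1 of 14 clock genes with an entry (7.14%), against 0.59% of 10673 tested genes, and in Per3 it occurred 2 times. The E-box CACGTG, bound by BMAL1 with CLOCK, was found in 4 of the 14 (28.6%), against 9.56% of tested genes. The list was chosen for genes of the clock loop, so these shares do not bear on the change in these animals. The bases are chr4:151044786-151044900 of GRCm38.p6 on the minus strand from RefSeq, with the matches in capitals.
Per3: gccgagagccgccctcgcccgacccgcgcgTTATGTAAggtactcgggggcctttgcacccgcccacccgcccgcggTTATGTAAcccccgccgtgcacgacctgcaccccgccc

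Genes that respond to glucocorticoids or fasting were higher for a part of the list. Of 20 listed genes 19 were tested, 8 were higher and 1 lower without overlap, the median was 0.72 (0.47 without DSS model 2), and DESeq2 called 4. Over all genes, 14.0% were higher and 13.8% lower without overlap. Depp1 (NCBI gene 213393), a gene driven by FOXO factors in fasting, had the smallest p of all 13381 genes. It stood at 23.3 and 11.3 CPM in the mesalazine mice, against 1.38 and 0.928 CPM in the DSS model mice (log2 change 3.89, SE 0.51; edgeR adjusted p = 0.203, DESeq2 adjusted p = 3.22e-09), with controls at 1.29 and 0.801 CPM. The metallothioneins, which bind zinc and copper, were higher in both mice and most in mesalazine 1. Mt1 had 2282 and 653 CPM in the mesalazine mice, against 147 and 345 CPM in the DSS model mice (log2 change 2.58, SE 0.68; DESeq2 adjusted p = 0.00317). Mt2 had 1086 and 391 CPM in the mesalazine mice, against 44.3 and 161 CPM in the DSS model mice (log2 change 2.85, SE 0.71; DESeq2 adjusted p = 0.00114). Angptl4, an inhibitor of lipoprotein lipase and a target of PPAR and glucocorticoid receptors, had 16.4 and 5.66 CPM in the mesalazine mice, against 2.64 and 1.52 CPM in the DSS model mice (log2 change 2.40, SE 0.61; DESeq2 adjusted p = 0.0182). Fkbp5 and Sgk1, textbook glucocorticoid targets, were higher in both mesalazine mice than in both DSS model mice, while Tsc22d3 was not. Fkbp5 was at 504 and 397 CPM in the mesalazine mice, against 326 and 223 CPM in the DSS model mice. Sgk1 was at 337 and 360.3 CPM in the mesalazine mice, against 85.1 and 206 CPM in the DSS model mice. Tsc22d3 overlapped at 40.9 and 47.8 CPM in the mesalazine mice, against 56 and 30.4 CPM in the DSS model mice. Sesn1, a FOXO- and p53-regulated restraint on the mTORC1 kinase and no member of the list, had 37.4 and 34.9 CPM in the mesalazine mice, against 12 and 16.4 CPM in the DSS model mice (log2 change 1.35, SE 0.27; DESeq2 adjusted p = 0.0101).

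Genes of the small-intestinal brush border and of lipid absorption held many of the largest separations on the higher side. Their list was drawn up after the values had been seen, so its counts are a description only. Of 30 listed genes 27 were tested, 20 were higher without overlap and none lower, the median was 1.37, and DESeq2 called 8. Over all genes tested 14.0% were higher and 13.8% lower without overlap, and DESeq2 called 0.291% higher. Slc6a19 (NCBI gene 74338), the brush-border transporter of neutral amino acids, had 16.3 and 38 CPM in the mesalazine mice, against 1.63 and 1.52 CPM in the DSS model mice (log2 change 4.10, SE 0.64; edgeR adjusted p = 0.203, DESeq2 adjusted p = 1.43e-08). Both mesalazine mice were above both DSS model mice. The aminopeptidase Anpep had 48.7 and 231 CPM in the mesalazine mice, against 4.15 and 4.57 CPM in the DSS model mice. Enpep, another aminopeptidase, had 83.9 and 122 CPM in the mesalazine mice, against 5.6 and 24.3 CPM in the DSS model mice (log2 change 2.78, SE 0.69). Npc1l1, the cholesterol uptake protein, had 3.82 and 19 CPM in the mesalazine mice, against 0.566 and 1.19 CPM in the DSS model mice (log2 change 3.70, SE 0.86). Cubn, a receptor for vitamin B12 with intrinsic factor, had 13.1 and 25.9 CPM in the mesalazine mice, against 3.46 and 4.04 CPM in the DSS model mice (log2 change 2.38, SE 0.51). Apoa1, an apolipoprotein of enterocytes and liver, separated most widely, at 27 and 253 CPM in the mesalazine mice, against 2.2 and 1.59 CPM in the DSS model mice.

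Markers named as signs of small intestine were present in the mesalazine mice. Fabp6, the bile acid-binding protein of the ileum, stood at 26.3 and 28.9 CPM in the mesalazine mice, against 5.34 and 7.69 CPM in the DSS model mice, and at 1.58 and 5.11 CPM in the controls. Sis, sucrase-isomaltase, had 21.1 and 46.1 CPM in the mesalazine mice, against 3.08 and 6.1 CPM in the DSS model mice, and 5.55 and 0.431 CPM in the controls. Lct, the lactase of the proximal small intestine, was at 0.331 CPM or less in all 4 libraries, and Slc2a2, the basolateral glucose carrier of enterocytes, was at 0 in the mesalazine, DSS model and control libraries.

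Hox genes, which keep a record of position along the gut in adult tissue, differed in the same animals. Of 8 tested genes of paralogue groups 9 to 13, 5 were lower and 2 higher without overlap, with a median of -1.68. Of 16 tested genes of groups 1 to 8, 9 were higher and 4 lower, with a median of 0.61 (0.40 without mesalazine 1). Over all genes tested 14.0% were higher and 13.8% lower without overlap. In groups 9 to 13, 5 genes were lower and 1 higher at an unadjusted edgeR p under 0.05. In groups 1 to 8 it was 1 lower and 0 higher. These lists too were drawn up after the values had been seen. Hoxb13, the most posterior Hox gene of its cluster, had 0.212 and 0.642 CPM in the mesalazine mice, against 12.9 and 2.98 CPM in the DSS model mice (log2 change -4.15, SE 1.28; edgeR adjusted p = 0.636). In mesalazine 1 the level of Hoxb13 was at the floor, so the size of its log2 change is uncertain. The controls were far apart, at 19.9 and 175 CPM. Hoxa10 stood at 5.59 and 13.8 CPM in the mesalazine mice, against 42.6 and 31.7 CPM in the DSS model mice (log2 change -1.93, SE 0.49; DESeq2 adjusted p = 0.0182). Hoxa11 was at 3.75 and 2.74 CPM in the mesalazine mice, against 12.5 and 10.9 CPM in the DSS model mice (log2 change -1.85, SE 0.39; DESeq2 adjusted p = 0.00683). Of the higher members of groups 1 to 8, Hoxb6 had 46 and 57.3 CPM in the mesalazine mice, against 30.7 and 22.7 CPM in the DSS model mice. The 4 lower members of these groups are not named. Hoxb4 had 7.07 and 12.3 CPM in the mesalazine mice, against 3.52 and 4.77 CPM in the DSS model mice. Hoxb9, a member of groups 9 to 13, was also higher, at 83 and 103 CPM in the mesalazine mice, against 76.5 and 77.9 CPM in the DSS model mice. Insl5, a peptide hormone of enteroendocrine cells of the distal colon, stood at 2.12 and 2.28 CPM in the mesalazine mice, against 15 and 6.16 CPM in the DSS model mice. The labels name colonic mucosa for every sample and no level along the colon. These position markers differed along with the mesalazine group, and their part in the other differences was not tested.

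Of 33 tested targets of PPAR gamma and alpha and genes of fatty acid oxidation, 6 were higher and 7 lower without overlap (median 0.07, and -0.08 without mesalazine 2). Among all genes the shares were 14.0% higher and 13.8% lower. Pparg, the receptor, overlapped at 138 and 210.2 CPM in the mesalazine mice, against 148 and 156 CPM in the DSS model mice. Plin2, which coats lipid droplets, was at 115 and 104 CPM in the mesalazine mice, against 167 and 148 CPM in the DSS model mice. The members higher and called by DESeq2 were Angptl4 and Cyp4b1. Cyp4b1, a monooxygenase of fatty acids and xenobiotics, had 74.4 and 89.9 CPM in the mesalazine mice, against 10.5 and 22.7 CPM in the DSS model mice (log2 change 2.31, SE 0.38; DESeq2 adjusted p = 1.2e-05). In the KEGG annotation, 15 of 58 tested genes of PPAR signalling were higher and 8 lower without overlap (median 0.21). Abca1, the cholesterol exporter that liver X receptors induce, was outside these lists, at 8.98 and 14.2 CPM in the mesalazine mice, against 2.14 and 3.65 CPM in the DSS model mice (log2 change 2.01, SE 0.40; DESeq2 adjusted p = 0.00309).

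Of 21 tested enzymes and receptors of prostaglandins and leukotrienes, 2 were higher and 8 lower without overlap, against 14.0% and 13.8% of all genes. The median of the list was 0.04, and it was -0.37 without mesalazine 1 and -0.08 without DSS model 1. Ptgs2, the inducible cyclooxygenase, had 2.9 and 4.26 CPM in the mesalazine mice, against 4.84 and 18 CPM in the DSS model mice (log2 change -1.67, SE 0.56), and 0.297 and 0.246 CPM in the controls. Hpgd, the dehydrogenase that inactivates prostaglandin E2, was higher, at 360 and 483 CPM in the mesalazine mice, against 191 and 212 CPM in the DSS model mice (log2 change 1.07, SE 0.30). Ptgs1, the constitutive cyclooxygenase, overlapped at 6.58 and 3.21 CPM in the mesalazine mice, against 3.58 and 4.18 CPM in the DSS model mice. Alox5, which starts leukotriene synthesis, stood at 0.99 and 1.17 CPM in the mesalazine mice, against 2.7 and 2.32 CPM in the DSS model mice. The median of the 43 tested KEGG genes of arachidonic acid metabolism was 0.19 (-0.28 without mesalazine 1), with 9 higher and 8 lower without overlap.

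Genes of arylamine acetylation, drug transport and conjugation had 24 of 28 estimates above 0, with 5 higher and 1 lower without overlap and a median of 0.24 (0.45 without mesalazine 1, 0.02 without mesalazine 2). Over all genes tested 7267 of 13381 estimates were above 0, and 14.0% of genes were higher and 13.8% lower without overlap. Nat2, the N-acetyltransferase of mouse that acts on arylamines such as mesalazine, overlapped at 33.9 and 57.1 CPM in the mesalazine mice, against 40.2 and 39.1 CPM in the DSS model mice. Cyp3a13, a monooxygenase of drugs and steroids, had 542 and 685 CPM in the mesalazine mice, against 187 and 266 CPM in the DSS model mice (log2 change 1.44, SE 0.34; DESeq2 adjusted p = 0.0102). Sult1a1, a phenol sulfotransferase, had 328 and 318 CPM in the mesalazine mice, against 149 and 149.8 CPM in the DSS model mice (log2 change 1.11, SE 0.26; DESeq2 adjusted p = 0.0141). In Sult1a1 the 2 animals of each group were nearly equal, and the controls stood at 288 and 272 CPM. Medians of the KEGG lists of drug metabolism were 0.29 for cytochrome P450 and 0.18 for other enzymes, and both were below 0 without mesalazine 1, at -0.18 and -0.16. Of 20 NRF2 and antioxidant genes 1 was higher and 4 lower without overlap (median 0.02, and -0.20 without mesalazine 1 and -0.05 without DSS model 1). Nqo1, a quinone reductase, stood at 60.7 and 79.6 CPM in the mesalazine mice, against 58.3 and 60.8 CPM in the DSS model mice.

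The epithelial lists were otherwise mixed, and their counts without overlap stand against 14.0% higher and 13.8% lower of all genes tested. Stem cell and Wnt target genes had 8 of 18 higher and 1 lower without overlap (median 0.38, and 0.75 without DSS model 2). Rnf43, a ligase that removes Wnt receptors, had 25.1 and 28.4 CPM in the mesalazine mice, against 14.3 and 15.4 CPM in the DSS model mice (log2 change 0.85, SE 0.25). The stem cell receptor Lgr5 was at 5.45 and 6.42 CPM in the mesalazine mice, against 0.314 and 3.45 CPM in the DSS model mice. Goblet cell genes had 1 of 16 higher and 4 lower (median -0.21), and the median lay between -0.65 without mesalazine 1 and -0.03 without mesalazine 2. Colonocyte absorption and transport genes had 4 of 27 higher and 6 lower (median 0.08, and -0.33 without mesalazine 2). Junction genes had none of 17 higher and 6 lower (median -0.34, between -0.64 without mesalazine 2 and -0.14 without DSS model 1). Aqp8, a water channel of surface colonocytes, was split, at 83.3 and 399 CPM in the mesalazine mice, against 249 and 313 CPM in the DSS model mice. Cell cycle genes had 3 of 24 lower and none higher (median -0.32). That median was 0.01 without mesalazine 2 and 0.38 without DSS model 2. The proliferation marker Mki67 overlapped at 57.2 and 80.8 CPM in the mesalazine mice, against 65.6 and 109.8 CPM in the DSS model mice. Enteroendocrine and tuft cell genes had 2 of 21 higher and 7 lower (median -0.34, and 0.09 without DSS model 1), and squamous epithelium genes 1 of 4 higher (median -0.09, and 0.03 without DSS model 2).

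Of the immune and stromal lists, T and NK cell markers had 8 of 16 higher and none lower without overlap (median 0.71). For these lists too the shares over all genes were 14.0% higher and 13.8% lower. Klrd1, a receptor of NK cells and cytotoxic T cells, had 3.54 and 5.02 CPM in the mesalazine mice, against 1.95 and 1.72 CPM in the DSS model mice (log2 change 1.22, SE 0.45). Cd3d, part of the T cell receptor complex, had 4.24 and 2.68 CPM in the mesalazine mice, against 0.755 and 2.25 CPM in the DSS model mice. The summed level of the list was 70.5 and 54.3 CPM in the mesalazine mice, against 30.4 and 51.7 CPM in the DSS model mice, and Ncr1, a defining NK cell gene, was at 0 in 3 of these 4 libraries. B and plasma cell markers had 4 of 14 lower and 1 higher (median -0.90, and -0.07 without DSS model 2). Eosinophil and mast cell markers had 4 of 7 lower and 1 higher, with a median of -0.23 that lay between -0.92 without mesalazine 2 and -0.09 without DSS model 1. Monocyte and macrophage markers had 2 of 22 higher and 1 lower, and their median of 0.43 was -0.44 without mesalazine 1. Endothelial genes had 2 of 13 higher, with a median of 0.43 that was -0.44 without mesalazine 1 and -0.19 without DSS model 1. Extracellular matrix genes had 2 of 33 higher and 2 lower, with a median of 0.10 that was -0.58 without mesalazine 1 and -0.32 without DSS model 1. Mmp7, an epithelial matrix metalloproteinase, was the matrix gene called by DESeq2, at 44.6 and 9.45 CPM in the mesalazine mice, against 3.58 and 4.57 CPM in the DSS model mice (log2 change 2.73, SE 0.65; DESeq2 adjusted p = 0.00266). Smooth muscle genes had 1 of 14 higher and 3 lower (median -0.0020, and 0.42 without mesalazine 2 and 0.64 without DSS model 2). Enteric neuron and glia genes had 1 of 5 each way (median -0.37, and 0.17 without DSS model 1), and adipocyte genes 1 of 7 each way (median 0.21). Erythroid and skeletal muscle genes had none of 7 in either direction, with a median of 0.51 that was -0.08 without mesalazine 1 and -0.12 without DSS model 1.

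Ribosomal protein genes were higher in mesalazine 1, and respiratory chain genes were split between the mesalazine mice. Of 99 tested ribosomal protein genes 94 estimates were above 0, yet 5 were higher and 2 lower without overlap, and the median of 0.87 was -0.05 without mesalazine 1. Over all genes tested 7267 of 13381 estimates were above 0, and 14.0% of genes were higher and 13.8% lower without overlap. Of 26 oxidative phosphorylation genes, 22 were above both DSS model mice in mesalazine 1 and 24 were below both in mesalazine 2. Their median was 0.12, with 3 lower and none higher without overlap, and it was -0.43 without mesalazine 1 and -0.05 without DSS model 1. In the KEGG annotation the medians were 0.78 for the ribosome and 0.09 for oxidative phosphorylation, and without mesalazine 1 they were -0.15 and -0.44. That of oxidative phosphorylation was -0.03 without DSS model 1.

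**Figure D5:**
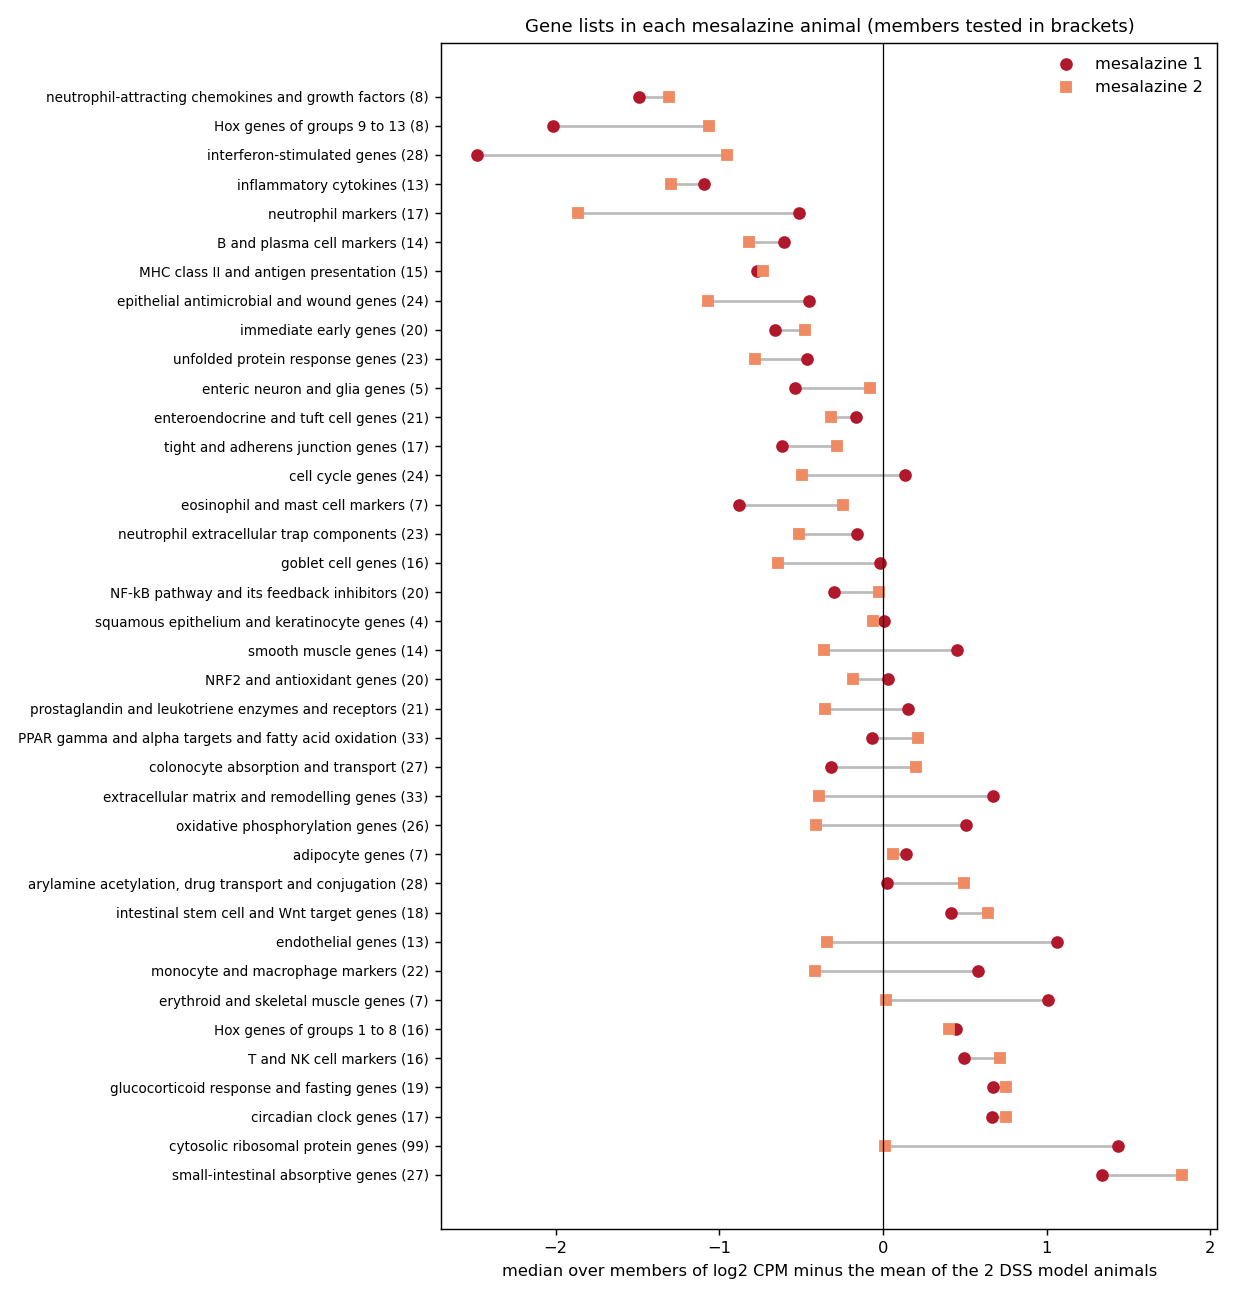
Median over the tested members of each gene list of log2 CPM in 1 mesalazine animal minus the mean of the 2 DSS model animals (x axis), for mesalazine 1 (circles) and mesalazine 2 (squares), with lists ordered by median log2 change. Both points lie left of 0 for interferon-stimulated genes, chemokines, cytokines and neutrophil markers, both right of 0 for clock, glucocorticoid and T cell lists, and ribosomal protein genes stand at 1.44 in mesalazine 1 and near 0 in mesalazine 2.

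Several of the genes above belong to families of near-identical copies, among them the Phf11, Ifit, Oas, Sprr, Reg3, metallothionein and interferon-inducible GTPase genes, and reads shared between copies may have been divided or dropped when they were counted. Which strand was counted is not given in the sources used here. Reads of a gene and of an antisense transcript over it could therefore not be told apart. Tmem86a, a lysoplasmalogen hydrolase, had 19.6 and 10.5 CPM in the mesalazine mice, against 3.71 and 2.92 CPM in the DSS model mice (log2 change 2.18, SE 0.42). Rnf212, a ligase known from meiosis, had 18 and 15.9 CPM in the mesalazine mice, against 2.01 and 4.9 CPM in the DSS model mice (log2 change 2.29, SE 0.47). Both were among 20 genes, 10 per direction, with the smallest p of those without overlap, with at least 5 CPM and an established symbol. The edgeR adjusted p values of these 20 ran from 0.203 to 0.371.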

How the data were processed

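The authors deposited whole-number read counts per gene and FPKM values for 8 libraries. Per the labels' protocols, total RNA came from a mirVana kit, RNA integrity numbers were at least 7, and libraries were made with a stranded TruSeq mRNA kit. The submitters' processing notes name Trimmomatic and HISAT2, with neither a version nor a step. The build, the annotation, the counting tool and its strand setting are not given in the sources used here. The deposited FPKM values equal the deposited counts divided by 1 length per gene and the library total (100% of 95455 values of at least 20 counts, within 0.1%). Of the mesalazine columns, which are spelled differently, replicate numbers were taken from the header.

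Genes passing filterByExpr by group (13381 of 17353) were scaled by TMM and tested with edgeR 4.0.16 in R 4.3.3 (quasi-likelihood F tests, all 8 libraries fitted together, 1 mean for each group, contrast mesalazine minus DSS model). The 4 libraries not compared add to the estimate of the spread, with a common biological coefficient of variation of 0.287. Calls needed a p under 0.05 after Benjamini-Hochberg adjustment over all tested genes. Log2 CPM used a prior count of 2. No overlap means that both mesalazine libraries lie above, or both below, both DSS model libraries. Lists are described by counts and medians, with no test of a list. Alternatives were DESeq2 1.42.0 on the same genes (an adjusted p given as NA stays out of counts), limma 3.58.1 on log2(FPKM + 1) and log2(FPKM + 0.1), other scalings and filters, a lowess correction for gene length, the replicate number as a block, and each library left out. The edgeR step was tested on simulated counts. The members, lists and tests were chosen with earlier results of these data known. Genes named are, per direction, the 10 with the smallest p and the 6 with the largest gap between groups (a mean of at least 5 CPM in 1 group, no overlap and an established symbol), the 6 per direction with the largest difference between the mesalazine libraries, the 2 smallest p per list and a panel of 30 genes (29 in the table); not all of these are printed, a few are not reported here, and genes added to illustrate a list were chosen after their values were seen. Promoter sequences and starts are from RefSeq (GRCm38.p6), matched by symbol, whatever build the counts used. Mpo was not analysed here. Floors cover counting error only.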

Additional observations from a re-analysis of the deposited data

How the results depend on the processing

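The main test called 0 genes, as did 20 of its 22 alternatives, including every one that left out a library (0 to 0 calls). DESeq2 called 84 and edgeR without a filter on low counts 104, only 1 of them below the filter, so the count of calls depends on the tool and the filter. The cause was not tested. With the replicate block 0 genes were called (664 at an unadjusted p under 0.05). The labels do not say whether the numbers pair the mice. Deviations of same-numbered mesalazine and DSS model libraries correlated at -0.31, but a correlation across genes cannot show which mice belong together. With the mesalazine numbers exchanged in the block, an alternative chosen after seeing the data, 0 genes were called (717 unadjusted). For 59 genes with a log2 change in the text, no alternative turned the sign. In these genes both mesalazine mice lay on the same side of both DSS model mice. Leaving out a library could therefore hardly turn the sign, and the result is no separate sign of stability.

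Without mesalazine 1 or 2, the count of genes with the other mesalazine mouse outside both DSS model mice was 9775 to 10449, against 3709 with both, since 1 animal has fewer conditions to meet. Leaving out 1 library at a time gave medians of 0.64 to 0.86 for clock genes, -1.20 to -0.52 for epithelial antimicrobial and wound genes, 0.47 to 0.83 for glucocorticoid and fasting genes, -1.52 to -0.71 for inflammatory cytokines, -2.59 to -0.98 for interferon-stimulated genes and -1.98 to -0.59 for neutrophil markers. With 1 mouse left in a group, it is assumed to vary like the others. The cytokine median was -0.97 without a filter, -0.74 with at least 1 CPM in 2 libraries and -0.75 with only the 4 libraries compared, as different members were tested. The glucocorticoid and fasting median was 0.78 with upper quartile scaling, 0.50 without a filter and 0.52 with only those 4 libraries. Upper quartile scaling also put the median of all genes at 0.09, against 0.04. With 2 mice per group, an adjusted p that misses the threshold does not show that a gene is unchanged.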
